A study of Homo sapiens with 21 samples.

Results

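Neuroendocrine peptide and hormone genes were followed in A673, an Ewing sarcoma cell line that carries the fusion transcription factor EWS/FLI, and in which the fusion was depleted and then replaced by altered forms. The set holds 9 of the 57820 genes counted: the peptide genes CALCB, CALCA, NPY, CCK and GAL, the receptor genes NPY1R and NPY5R, the transcription factor gene POU1F1 and the vesicle protein gene SYNPR. It was drawn up by name, and CALCB, POU1F1 and SYNPR were selected on their levels in these same libraries, so their levels and fold changes are described here with no test. The other 6 genes were tested, and all 9 passed the requirement that a gene average 1 or more counts per library.

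The 21 RNA-seq libraries form 7 groups of 3, numbered as replicate sets 1, 2 and 3. All cells received an shRNA by retrovirus on day 1 and a cDNA or empty vector by retrovirus on day 5, and all were selected with 2 µg/ml puromycin and 400 µg/ml hygromycin until day 16. Control cells carried an shRNA against luciferase and the empty vector (iLuc), and so kept the endogenous fusion. Depleted cells carried an shRNA against the fusion and the empty vector (iEF), and the iLuc profile relative to iEF is called endo-EF. The remaining groups were depleted cells given full-length EWS/FLI (WT-EF), the fusion without its EWS domain (Δ22), a full-length fusion with alanine in place of tyrosine in the EWS repeats of the amino-terminal part but not in the later part of the domain (DAF), a fusion that lacks most of the middle of EWS (mut9), or that short fusion with alanine in place of every repeat tyrosine it has (DAF-mut9). Every group comes from 1 cell line and from selected populations, and the study describes its replicates as repeated knockdown and rescue experiments, so p-values measure the spread between such repeats in this line.

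Peptide hormones are cut from larger precursors by prohormone convertases, stored in dense-core granules and released to act on receptors, most of which couple to G proteins. CALCA and CALCB encode precursors of calcitonin gene-related peptides, NPY encodes neuropeptide Y, and CCK and GAL encode the precursors of cholecystokinin and galanin. Ewing sarcoma cells are known for limited neural features, among them expression of neuropeptide Y and its receptors, and EWS/FLI is known to bind both single ETS sites and tandem GGAA repeats.

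The search for such repeats covered the genome around each start site, here the start of the canonical GENCODE transcript on GRCh37, on both strands. A run was defined as at least 4 GGAA units in tandem. Of 19819 protein-coding starts, 3.38% had a run within 5000 bases and 54.6% within 100000 bases. The longest runs near CCK, CALCA and SYNPR are shown because these 3 were the only members with a run of more than 5 units within 100000 bases, with the longest run in capitals and the strand that reads GGAA printed.

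CCK, chr3:42308329-42308395, minus strand: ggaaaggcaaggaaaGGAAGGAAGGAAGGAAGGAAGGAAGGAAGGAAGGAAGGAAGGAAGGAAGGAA
CALCA, chr11:14956486-14956549, minus strand: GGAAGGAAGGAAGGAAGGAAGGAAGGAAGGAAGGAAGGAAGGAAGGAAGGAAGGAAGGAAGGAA
SYNPR, chr3:63256537-63256728, minus strand: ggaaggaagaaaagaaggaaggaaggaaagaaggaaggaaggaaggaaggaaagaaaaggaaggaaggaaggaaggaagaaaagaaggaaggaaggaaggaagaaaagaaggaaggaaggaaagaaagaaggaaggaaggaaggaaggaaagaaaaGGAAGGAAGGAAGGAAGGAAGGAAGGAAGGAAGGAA

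CCK was the only member with a run within 5000 bases of its start. It had 4 runs there, of 4, 10, 11 and 13 units, whose centres lay 0.363 to 0.677 kb upstream. The run of 13 units lay in sequence outside any annotated gene. A run of 13 or more units lay within 5000 bases of 0.474% of protein-coding starts. The SYNPR array lay 7430 bases upstream of the canonical start, in an intron of a longer SYNPR transcript, and its longest run had 9 units. Of all starts, 20.6% had a run at least as long within 100000 bases. The run of 16 units lay 37380 bases downstream of the CALCA start, in an intron of a longer annotated CALCB transcript and 138622 bases upstream of the canonical CALCB start, and 3.08% of starts had a run at least as long within 100000 bases. CALCB, NPY and GAL had runs of 4 or 5 units at 15.5 kb or more from their starts. POU1F1, NPY1R and NPY5R had none within 100000 bases. Presence of a repeat is a description of the sequence, and binding was not measured in these files. The RefSeq promoter windows of 7 members (from just before to just after the start, GRCh38.p14) held neither GGAAGGAA nor the ETS motif CCGGAAGT on either strand, against 3.67% and 4.14% of all such windows.

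**Figure D1:**
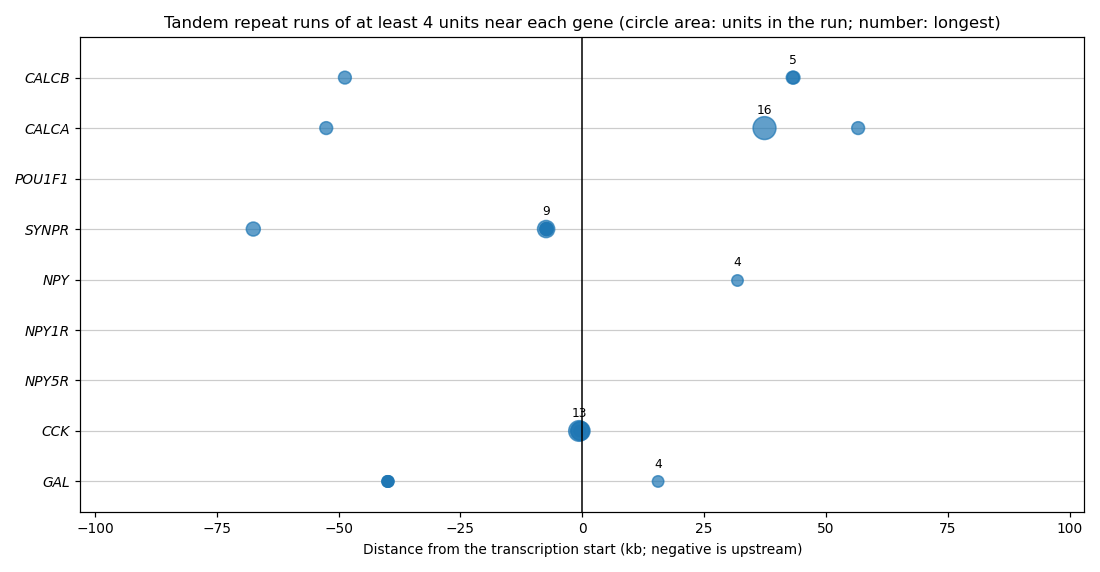
Tandem GGAA runs of at least 4 units around each gene, by distance from the canonical start in kb on the horizontal axis, with circle area proportional to the number of units and the longest run numbered. The CCK runs sit at the start site, the CALCA run of 16 units lies 37.38 kb downstream, and POU1F1, NPY1R and NPY5R have none in the window.

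Each library held between 32.9 and 46.2 M counts, and 1 CPM (count per M counts of a TMM-normalized library) stood for 32 to 45.2 counts. FLI1 ran from 20 to 21.1 CPM in iEF and from 60.6 to 89 CPM in iLuc. FLI1 and EWSR1 counts include reads from the fusion and from the introduced cDNAs. They check the knockdown in iEF and iLuc and do not measure each construct separately. FLI1 in the rescue groups ran from 21.9 to 26.5 CPM in WT-EF, 28.3 to 33.4 in mut9 and 35.1 to 39.8 in DAF. It ran from 34.6 to 37.3 CPM in DAF-mut9 and from 41.3 to 62 CPM in Δ22. The part of construct level in any difference between constructs was not tested. Of the Ewing sarcoma markers, NKX2-2, NR0B1 and STEAP1 were present in every library, whereas CD99, which lies in the region shared by chromosomes X and Y, had at most 8 counts. The summed level of 4 markers of blood and epithelium (PTPRC, CD3E, EPCAM and KRT5) was 1.02 to 1.1 CPM in iLuc and 0.465 to 1.01 CPM elsewhere, and 1 of the 3 tested markers, EPCAM, was higher in iLuc than in iEF. CD3E had no count in iLuc, and the part of these markers in any result was not tested. In bulk RNA, fewer cells that express a gene and less RNA per cell cannot be told apart. The DAF-mut9 columns are named differently from the sample titles and were matched from the name, so every DAF-mut9 value depends on that reading.

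Relative to each other, per kilobase of canonical transcript, POU1F1 was the highest member in iLuc at 70 CPM per kb, followed by NPY1R at 33, SYNPR at 18.4, NPY at 18.3 and CALCB at 16.7 CPM per kb. NPY5R stood at 7.82, CCK at 5.38, CALCA at 1.08 and GAL at 0.606 CPM per kb. In iEF the order was different, with GAL at 14.3 CPM per kb above NPY1R at 3.23, NPY at 1.96, POU1F1 at 1.67 and CALCB at 1.57 CPM per kb. SYNPR, NPY5R, CCK and CALCA were below 1 CPM per kb in iEF. GAL was thus the member with the lowest level in cells with the endogenous fusion and the one with the highest level in depleted cells. The rest of the order depended in part on the length used. Per kilobase of all annotated exons joined, CALCB was at 4.42 in iLuc, beside NPY5R at 4.43, and at 0.416 in iEF. By that length POU1F1, at 1.59, stood above NPY, at 1.22, in iEF. GAL was still lowest in iLuc, at 0.349, and highest in iEF, at 8.25 CPM per kb.

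**Figure D2:**
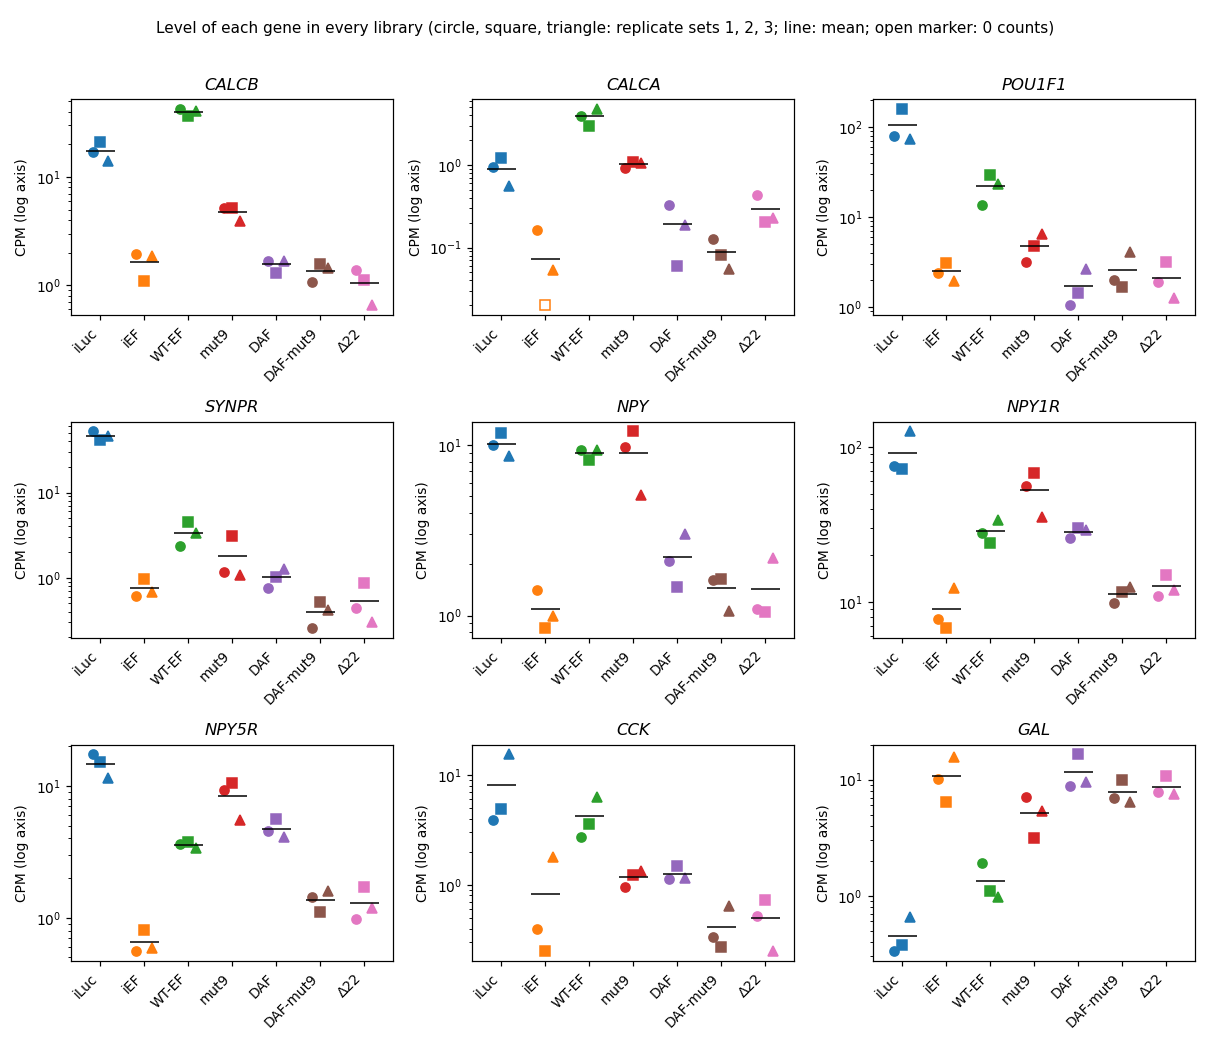
CPM of each gene in every library on a log axis, by group, with circles, squares and triangles for replicate sets 1, 2 and 3, a line at the mean of 3 libraries and an open marker for a library with 0 counts. GAL is lowest in iLuc and WT-EF, CALCB and CALCA are highest in WT-EF, and NPY1R and NPY5R are higher in DAF than in DAF-mut9 in every library.

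CALCB (ENSG00000175868, chr11:14926543-15103888 on GRCh37, plus strand) encodes the beta form of calcitonin gene-related peptide. Its levels were 17.1, 21.2 and 13.9 CPM in the iLuc libraries and 1.96, 1.1 and 1.86 CPM in the iEF libraries of sets 1, 2 and 3. In WT-EF they were 42.6, 36.3 and 40.9 CPM, above every iLuc library. In mut9 they were 5.16, 5.18 and 3.9 CPM, between iLuc and iEF with no overlap. DAF (1.56 ± 0.227 CPM, mean ± SD, n = 3), DAF-mut9 (1.36 ± 0.254 CPM) and Δ22 (1.06 ± 0.375 CPM) all overlapped iEF (1.64 ± 0.474 CPM). The log2 fold change over iEF was 3.39 in iLuc, 4.59 in WT-EF and 1.51 in mut9, and -0.08 in DAF. WT-EF stood 2.3-fold above iLuc. These groups chose the gene, so the ordering is a description. The gene shares 115 exon bases with the pseudogene CALCP on the same strand, so its counts are uncertain there.

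CALCA (ENSG00000110680, chr11:14988168-14993900, minus strand), which encodes calcitonin and the alpha form of the same peptide by alternative splicing, lies within the annotated span of CALCB on the opposite strand. It had 162, 124 and 197 counts in the WT-EF libraries, 37, 55 and 22 in iLuc, 40, 44 and 36 in mut9, and 7, 0 and 2 in iEF. WT-EF libraries were above all others, and iLuc and mut9 overlapped each other above the remaining groups. DAF had 2 to 12 counts, DAF-mut9 had 2 to 5 and Δ22 had 9 to 16. In CPM, WT-EF averaged 3.91 ± 0.92, iLuc 0.906 ± 0.334 and mut9 1.02 ± 0.0818 (SD, n = 3 each). The log2 fold change over iEF was 3.53 (SE 0.547) for iLuc, with an adjusted p of 2.09e-05, 5.63 (SE 0.51) for WT-EF, with 4.76e-08, and 3.69 (SE 0.543) for mut9, with 5.76e-05, by the edgeR quasi-likelihood test with Benjamini-Hochberg adjustment over all genes. DAF, DAF-mut9 and Δ22 did not pass against iEF at these counts (adjusted p = 0.326, 0.949 and 0.14 by edgeR), although every Δ22 library was above every iEF library and Δ22 passed with no low-count filter (0.0126). CALCA was higher in WT-EF than in iLuc by 2.10 on the log2 scale (SE 0.37, adjusted p = 0.000338 by edgeR, higher in 3 of 3 sets).

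NPY (ENSG00000122585, chr7:24323807-24331481, plus strand), the neuropeptide Y precursor gene, was at 9.94, 11.8 and 8.67 CPM in iLuc and 1.42, 0.845 and 1 CPM in iEF. WT-EF had 9.3, 8.18 and 9.33 CPM and mut9 had 9.73, 12 and 5.12 CPM. These 3 groups overlapped each other and lay above every library of the other 4 groups. NPY rose over iEF by 3.21 on the log2 scale in iLuc (SE 0.343), by 3.02 in WT-EF (SE 0.342) and by 3.03 in mut9 (SE 0.343), with edgeR adjusted p of 1.56e-07, 8.54e-07 and 2.55e-06. The difference between mut9 and WT-EF was 0.00 (SE 0.296, adjusted p = 0.997 by edgeR). DAF had 2.1, 1.48 and 3.03 CPM, above every iEF library, but its log2 fold change of 1.00 (SE 0.349) did not pass by edgeR (adjusted p = 0.0929). It passed with DESeq2 (adjusted p = 0.0357) and with no low-count filter (0.00192). DAF-mut9 and Δ22 both averaged 1.44 CPM and overlapped iEF.

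CCK (ENSG00000187094, chr3:42299317-42307677, minus strand), the cholecystokinin precursor gene, depended on the replicate set. Its counts were 152, 224 and 615 in iLuc, 17, 8 and 67 in iEF, and 114, 148 and 256 in WT-EF, each highest in set 3. It shares 671 exon bases with the lncRNA gene ENSG00000281160 on the opposite strand. The strand setting and annotation of the counting are not given in the sources used here, so CCK counts are uncertain in that stretch. The iLuc and WT-EF libraries overlapped, and all of them were above every iEF library. CCK rose over iEF by 3.29 on the log2 scale in iLuc (SE 0.457, adjusted p = 5.45e-06 by edgeR) and by 2.46 in WT-EF (SE 0.455, adjusted p = 0.00029 by edgeR), higher in 3 of 3 sets each. The mut9 level of 1.17 ± 0.201 CPM and the DAF level of 1.25 ± 0.197 CPM were both within the range of iEF, which ran from 0.25 to 1.81 CPM. None of mut9, DAF, DAF-mut9 and Δ22 passed against iEF (edgeR adjusted p of 0.397, 0.37, 0.511 and 0.798).

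GAL (ENSG00000069482, chr11:68451247-68458643, plus strand), the galanin precursor gene, moved the other way. It had 13, 17 and 26 counts in iLuc and 433, 205 and 580 in iEF, or 0.454 ± 0.173 and 10.7 ± 4.66 CPM (SD, n = 3). WT-EF was at 1.92, 1.09 and 0.982 CPM, above iLuc and below every other group. The mut9 libraries were at 7.05, 3.14 and 5.35 CPM, and overlapped iEF. GAL fell by 4.56 on the log2 scale in iLuc relative to iEF (SE 0.431, adjusted p = 2.71e-08 by edgeR) and fell by 3.01 in WT-EF (SE 0.383, adjusted p = 3.79e-06). In mut9 it fell by 1.05 (SE 0.346, adjusted p = 0.0457 by edgeR), a call that was lost without iEF replicate 1 or 3 or mut9 replicate 2 or 3 (adjusted p of 0.0759 to 0.343). DAF, at 11.6 ± 4.23 CPM, DAF-mut9 and Δ22 overlapped iEF and did not pass (adjusted p of 0.91, 0.596 and 0.786 by edgeR). GAL was higher in WT-EF than in iLuc by 1.55 (SE 0.451, adjusted p = 0.0192 by edgeR), which was lost without iLuc replicate 1 or 2 or WT-EF replicate 1 (0.0837 to 0.131).

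NPY1R (ENSG00000164128, chr4:164245114-164265984, minus strand) and NPY5R (ENSG00000164129, chr4:164265044-164273086, plus strand) encode G protein-coupled receptors for neuropeptide Y and start next to each other on opposite strands. They share 528 exon bases, so part of their counts is uncertain. NPY1R was at 75.2, 71.7 and 126 CPM in iLuc and 7.75, 6.76 and 12.3 CPM in iEF. In mut9 it was at 56.4, 67.6 and 35.4 CPM, below every iLuc library and above every WT-EF library, which had 27.8, 24 and 33.6 CPM. DAF, with 26, 29.8 and 29.1 CPM, overlapped WT-EF. DAF-mut9, with 9.89, 11.5 and 12.4 CPM, and Δ22, with 10.9, 14.8 and 12 CPM, overlapped iEF. NPY1R rose over iEF by 3.35 on the log2 scale in iLuc (SE 0.248), by 2.61 in mut9 (SE 0.243), by 1.68 in WT-EF (SE 0.236) and by 1.68 in DAF (SE 0.237), with edgeR adjusted p of 7.49e-10, 2.03e-07, 1.29e-05 and 0.000121. DAF-mut9 and Δ22 did not pass against iEF (adjusted p = 0.559 and 0.329 by edgeR), and Δ22 passed with no low-count filter (0.031).

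NPY5R followed the same order of groups in part. It was at 17.4, 15.3 and 11.6 CPM in iLuc, 9.27, 10.6 and 5.5 CPM in mut9, and 4.56, 5.61 and 4.07 CPM in DAF. WT-EF had 3.63, 3.75 and 3.36 CPM, below every DAF library. DAF-mut9 had 1.44, 1.1 and 1.59 CPM and Δ22 had 0.987, 1.7 and 1.19 CPM, and both were above the iEF libraries at 0.56, 0.813 and 0.594 CPM. All 6 groups passed against iEF, with log2 fold changes of 4.50 (SE 0.254) in iLuc, 3.67 (SE 0.25) in mut9, 2.86 (SE 0.25) in DAF and 2.46 (SE 0.25) in WT-EF, at edgeR adjusted p of 1.37e-11, 2.54e-09, 4.27e-07 and 2.13e-07. The smaller changes, 1.10 (SE 0.262, adjusted p = 0.0229 by edgeR) in DAF-mut9 and 0.98 (SE 0.262, adjusted p = 0.0473 by edgeR) in Δ22, rested on 22 to 26 counts in the iEF libraries. Both were lost when only the 2 compared groups were fitted (adjusted p = 0.123 and 0.136) and on the authors' batch-adjusted values (0.302 and 0.462). The DAF-mut9 call was also lost without iEF replicate 1 or 3 or DAF-mut9 replicate 1 or 3 (0.0814 to 0.149), and the Δ22 call without any 1 of the iEF replicates, without Δ22 replicate 2 or 3, or with no replicate block (0.0659 to 0.215).

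POU1F1 (ENSG00000064835, chr3:87308554-87325734, minus strand) encodes a POU homeodomain transcription factor of the anterior pituitary, where it is required for growth hormone, prolactin and thyrotropin cells. It was at 78.9, 160 and 73.8 CPM in iLuc, 13.5, 29.4 and 23.4 CPM in WT-EF and 3.12, 4.69 and 6.43 CPM in mut9. These groups did not overlap each other or iEF, whose libraries had 2.4, 3.1 and 1.95 CPM, although the lowest mut9 library lay just above the highest iEF library. DAF, DAF-mut9 and Δ22 averaged 1.69 ± 0.83, 2.56 ± 1.28 and 2.1 ± 0.979 CPM and overlapped iEF. The iLuc level was 40.6-fold and the WT-EF level 8.52-fold that of iEF, so WT-EF stood 4.77-fold below iLuc. Of 7 pituitary hormone and receptor genes known to be bound by POU1F1, only PRL and GHRHR had enough counts to be tested. PRL, the prolactin gene, was close to the limit of detection, at 0.266 ± 0.201 CPM in iEF, 0.04 ± 0.0127 in iLuc and 0.814 ± 0.196 CPM in DAF (SD, n = 3). It passed as lower in iLuc than in iEF (adjusted p = 0.00043 by edgeR), with an iLuc level under the 0.0728 CPM that 3 counts stood for there, so no fold is given, and as higher in DAF (adjusted p = 0.00415 by edgeR). GHRHR, the receptor gene for growth hormone-releasing hormone, did not pass in any of the 6 comparisons with iEF.

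SYNPR (ENSG00000163630, chr3:63213991-63602600, plus strand) encodes synaptoporin, a synaptic vesicle membrane protein of the synaptophysin family. Its libraries were at 51.9, 41.7 and 45.6 CPM in iLuc and 0.607, 0.97 and 0.676 CPM in iEF, a 65-fold difference. WT-EF had 2.33, 4.5 and 3.32 CPM, above iEF and 14.6-fold below iLuc. The mut9 libraries were at 1.18, 3.09 and 1.08 CPM and overlapped WT-EF. DAF at 1.02 ± 0.259 CPM and Δ22 at 0.538 ± 0.297 CPM overlapped iEF, whereas the DAF-mut9 libraries, at 0.257, 0.521 and 0.419 CPM, were all below it. Among the 9 genes, SYNPR and POU1F1 had the largest shortfall of WT-EF from iLuc, with log2 differences of -3.87 and -2.25. Both genes were selected on such values.

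Depletion of the endogenous fusion was thus followed by a change in all 6 tested members. In iLuc over iEF, 5 of 6 were higher (CALCA, NPY, NPY1R, NPY5R and CCK), where 18.7% of all tested genes were higher, and GAL was lower, where 22.4% were lower. In WT-EF over iEF, the same 5 were higher, against 11.4% of all genes, and GAL was lower, against 16.9%. In mut9 over iEF, 4 of 6 were higher, against 6.22%, and GAL was lower, against 8.33%, with CCK not passing. In DAF over iEF, NPY1R and NPY5R were higher, 2 of 6 against 3.41% of all genes, and none was lower, against 4.02%. In DAF-mut9 over iEF, NPY5R alone was higher, against 1.26%, with none lower, against 2.14%. In Δ22 over iEF, NPY5R alone was higher, against 0.881%, with none lower, against 1.79%. These comparisons share the iEF libraries, and the genes were named with earlier results known.

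**Figure D3:**
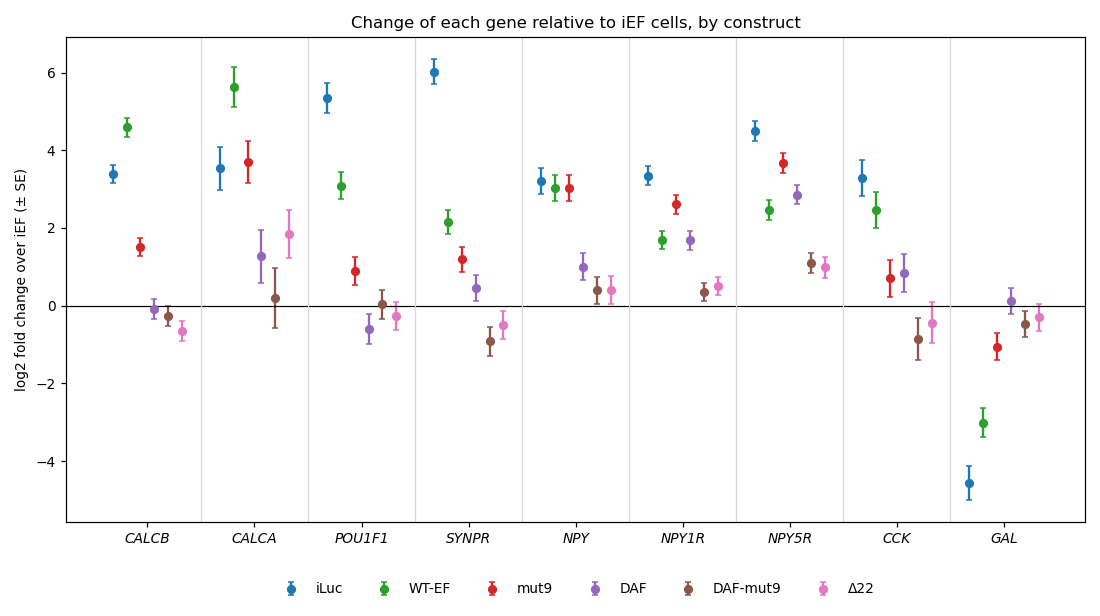
Log2 fold change of each gene over iEF, with its SE from the edgeR fit, for each construct and for iLuc. The bars of CALCB, POU1F1 and SYNPR, which were selected on these levels, are no test of them. CALCB and CALCA are higher in WT-EF than in iLuc, NPY1R and NPY5R show changes in DAF where CALCB shows -0.08, and GAL changes in the opposite direction in iLuc, WT-EF and mut9.

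Rescue by WT-EF was compared directly with iLuc. CALCA and GAL were higher in WT-EF, 2 of 6 against 9.78% of all genes, and NPY1R and NPY5R were lower, 2 of 6 against 8.52%. NPY1R fell by 1.66 on the log2 scale (SE 0.23, adjusted p = 2.37e-05 by edgeR) and NPY5R fell by 2.03 (SE 0.215, adjusted p = 7.53e-07 by edgeR), lower in 3 of 3 sets each. NPY differed by -0.18 (SE 0.297, adjusted p = 0.76 by edgeR) and CCK by -0.83 (SE 0.4, adjusted p = 0.176 by edgeR). CCK passed with no low-count filter (0.0093) and when only the 2 groups were fitted (0.019). Levels in WT-EF relative to iLuc therefore ran from 4.27-fold higher for CALCA to 4.1-fold lower for NPY5R among the tested members.

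Shortening of EWS was compared by setting mut9 against WT-EF. NPY1R, NPY5R and GAL were higher in mut9, 3 of 6 against 4.95% of all genes, and CALCA and CCK were lower, 2 of 6 against 1.2%. NPY5R was higher by 1.21 on the log2 scale (SE 0.212, adjusted p = 0.00119 by edgeR) and GAL by 1.96 (SE 0.378, adjusted p = 0.00277 by edgeR). CALCA fell by 1.93 (SE 0.366, adjusted p = 0.0023 by edgeR), higher in WT-EF in 3 of 3 sets, and CALCB was 8.45-fold lower in mut9 with no overlap. NPY1R was higher by 0.93 (SE 0.228, adjusted p = 0.0158 by edgeR), a call lost on the authors' batch-adjusted values (0.0997) and without WT-EF replicate 2 or 3 or mut9 replicate 1 or 2 (0.0571 to 0.152). CCK fell by 1.76 (SE 0.434, adjusted p = 0.0165 by edgeR), a call lost with no replicate block (0.0597) and without WT-EF replicate 2 or 3 or mut9 replicate 1 or 3 (0.0614 to 0.124). Among the tested members, NPY5R thus lay above WT-EF in mut9 and CALCA lay below it. NPY1R lay on the side of NPY5R, with a call that was lost as above. CALCB lay on the side of CALCA, but it was selected on its levels, so its place is only a description.

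Tyrosine substitution was compared in the full-length form (DAF against WT-EF) and in the short form (DAF-mut9 against mut9). In the full-length form CALCA, NPY and CCK were lower, 3 of 6 against 10.6% of all genes, and GAL was higher, against 14.3%. CALCA fell by 4.35 on the log2 scale (SE 0.453, adjusted p = 4.82e-07 by edgeR), NPY fell by 2.02 (SE 0.322, adjusted p = 7.3e-05 by edgeR) and GAL rose by 3.13 (SE 0.384, adjusted p = 3.57e-06 by edgeR). CCK fell by 1.62 (SE 0.437, adjusted p = 0.00857 by edgeR) and did not pass without DAF replicate 3 (0.0682). NPY1R differed by 0.00 (SE 0.227, adjusted p = 0.994 by edgeR) and NPY5R by 0.39 (SE 0.214, adjusted p = 0.203 by edgeR). CALCB was 25.6-fold, POU1F1 12.8-fold and SYNPR 3.23-fold lower in DAF than in WT-EF, with no overlap of libraries.

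In the short form the receptor genes fell together with CALCA and NPY. CALCA, NPY, NPY1R and NPY5R were lower in DAF-mut9 than in mut9, 4 of 6 against 4.68% of all genes, and none was higher, against 5.15%. NPY1R fell by 2.27 on the log2 scale (SE 0.238, adjusted p = 1.54e-06 by edgeR), NPY5R fell by 2.57 (SE 0.231, adjusted p = 2.04e-07), CALCA fell by 3.49 (SE 0.532, adjusted p = 0.000124) and NPY fell by 2.63 (SE 0.333, adjusted p = 1.43e-05), each in 3 of 3 sets. CCK changed by -1.56 (SE 0.514, adjusted p = 0.0621 by edgeR), and passed with DESeq2 (0.0187), on the authors' batch-adjusted values (0.0286), with no low-count filter (3.61e-05) and with only the 2 groups fitted (0.00229). GAL differed by 0.58 (SE 0.347, adjusted p = 0.377 by edgeR).

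The difference between these 2 tyrosine effects, short form minus full-length form, was then tested as an interaction, chosen after the levels had been seen. The tyrosines replaced in the short form are fewer, since most of the EWS domain is missing from mut9, and DAF keeps tyrosines in the later part of EWS whereas DAF-mut9 keeps none in its repeats. NPY1R, NPY5R and GAL had negative interactions, 3 of 6 against 2.82% of all genes, and none was positive, against 0.504%. The interaction was -2.26 on the log2 scale for NPY1R (SE 0.326, adjusted p = 0.000303 by edgeR), -2.96 for NPY5R (SE 0.314, adjusted p = 1.35e-05 by edgeR) and -2.54 for GAL (SE 0.507, adjusted p = 0.0058 by edgeR). For the receptor genes the fall was seen in the short form, and for GAL the rise was seen in the full-length form. GAL libraries of mut9, DAF and DAF-mut9 all overlapped iEF, and GAL was already higher in mut9 than in WT-EF by 1.96. The GAL interaction therefore includes that difference between the unsubstituted forms. CALCA (0.86, SE 0.819), NPY (-0.62, SE 0.452) and CCK (0.07, SE 0.741) did not pass (adjusted p of 0.717, 0.6 and 0.985 by edgeR).

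What DAF kept over the form without EWS was read from DAF against Δ22. NPY1R and NPY5R were higher in DAF, 2 of 6 against 0.789% of all genes, and none was lower, against 0.183%. NPY5R was higher by 1.87 on the log2 scale (SE 0.23, adjusted p = 8.16e-05 by edgeR) and NPY1R by 1.17 (SE 0.232, adjusted p = 0.0108 by edgeR). The NPY1R call was lost on the authors' batch-adjusted values (0.0938) and without DAF replicate 2 or Δ22 replicate 1 or 3 (0.0692 to 0.0914). By the edgeR fit of all groups, CALCA, NPY, CCK and GAL did not pass between DAF and Δ22, with log2 differences of -0.57, 0.61, 1.27 and 0.42 (SE 0.542, 0.339, 0.498 and 0.338, adjusted p of 0.877, 0.691, 0.406 and 0.838 by edgeR). CCK passed there with no low-count filter (0.00318) and when only the 2 groups were fitted (0.0411).

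Other receptors for these peptides were read from a list of 12, of which 7 had enough counts. In iLuc over iEF, 4 were higher and 1 was lower, beside 18.7% and 22.4% of all tested genes, with a median log2 fold change of 1.14 over the 7, beside 0.01 over all genes. CALCRL, the receptor that binds calcitonin gene-related peptide together with RAMP1, was higher than iEF in every other group. Its mean was 2.98 ± 1.28 CPM in iEF, 18.8 ± 8.92 in iLuc, 26.6 ± 4.36 in WT-EF and 14.2 ± 7.83 CPM in Δ22 (SD, n = 3), so the Δ22 cells, without the EWS domain, also differed from iEF, by 2.27 on the log2 scale (adjusted p = 0.00271 by edgeR). RAMP1 rose by 1.14 in iLuc (adjusted p = 0.00375 by edgeR) and RAMP2 by 2.50 (adjusted p = 0.000107 by edgeR). CCKAR, a cholecystokinin receptor gene, rose by 2.69 (adjusted p = 0.00413 by edgeR), and GALR2, a galanin receptor gene, fell by 1.31 (adjusted p = 0.0319 by edgeR). In WT-EF over iEF, 3 were higher and 0 lower, beside 11.4% and 16.9% of all tested genes. The median there was 0.09, beside 0.00 over all genes. Over iEF, the median of these 7 was 0.65 in mut9, 1.52 in DAF, 1.18 in DAF-mut9 and 0.91 in Δ22. Beside these, the medians over all genes were 0.02, -0.03, -0.02 and 0.00. The higher median was therefore not particular to iLuc.

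Of 61 further peptide precursor genes, 42 had enough counts, and in iLuc over iEF 8 were higher, 9 lower and 25 did not pass, with a median log2 fold change of -0.18. Both counts are near the shares of all tested genes, 18.7% higher and 22.4% lower. In WT-EF over iEF, 7 were higher and 11 lower, beside 11.4% and 16.9% of all tested genes. GRP, the gastrin-releasing peptide gene, rose from 2.18 ± 0.592 CPM in iEF to 66.1 ± 11.6 in iLuc and 44 ± 1.54 in WT-EF (SD, n = 3), with 12.4 ± 3.32 in mut9 and 4.11 ± 1.41 CPM in DAF. UTS2, the urotensin 2 gene, rose from 3.23 ± 1.7 to 40.7 ± 19 CPM in iLuc. UCN2, the urocortin 2 gene, had 0, 3 and 0 counts in iLuc and 227, 69 and 183 in iEF, too few in iLuc for a fold to be given. EDN1, the endothelin 1 gene, fell from 9.04 ± 7.07 to 0.0967 ± 0.05 CPM.

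Of 23 prohormone processing and dense-core granule genes, 5 were higher, 11 lower and 7 did not pass in iLuc over iEF, with a median of -0.60. The count of higher genes is near the 18.7% of all tested genes, and the count of lower genes stands beside 22.4%. In WT-EF over iEF, 4 were higher and 9 lower, beside 11.4% and 16.9% of all tested genes, with a median of -0.72. PCSK2, the prohormone convertase 2 gene, rose from 6.71 ± 1.56 CPM in iEF to 122 ± 28.4 in iLuc, 107 ± 19.2 in WT-EF and 55.7 ± 12 in mut9, against 9.18 ± 1.09 CPM in DAF (SD, n = 3). PCSK1, another prohormone convertase gene, was lower in iLuc, at 1.91 ± 0.409 CPM against 23.6 ± 8.04 in iEF (adjusted p = 7.37e-09 by edgeR). It passed as higher than iEF in WT-EF, mut9, DAF-mut9 and Δ22, with means of 99.5, 98.4, 97.3 and 90.6 CPM. In DAF it did not pass (adjusted p = 0.128 by edgeR). The granin genes diverged. CHGA rose from 0.702 ± 0.297 to 6.02 ± 3.44 CPM in iLuc, whereas CHGB fell from 25.5 ± 7.58 to 1.27 ± 0.146 CPM. RAB27B, a granule-docking GTPase gene, fell from 4.83 ± 1.87 to 0.0587 ± 0.0804 CPM, and PTPRN, a granule membrane protein gene, from 10.8 ± 7 to 0.512 ± 0.433 CPM. CADPS2, which primes granules for release, rose from 105 ± 10 to 206 ± 13 CPM. CHGB was also lower than iEF in Δ22 (4.62 ± 0.646 CPM, adjusted p = 1.12e-05 by edgeR), as in each of the other groups. RAB27B was also lower than iEF in DAF and DAF-mut9 (adjusted p = 0.00423 and 0.0259 by edgeR), and PTPRN in DAF (0.00519). In Δ22, RAB27B and PTPRN averaged 2.14 and 4.15 CPM and did not pass (adjusted p = 0.0982 and 0.0843 by edgeR).

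Of 22 other synaptic vesicle and release genes, 8 were higher and 7 lower in iLuc over iEF, with a median of 0.11, beside 18.7% and 22.4% of all tested genes. In WT-EF 5 were higher and 3 lower, beside 11.4% and 16.9%, so the count of lower genes is near the share of all genes. SV2B, a vesicle glycoprotein gene, was at 0.385 ± 0.358 CPM in iEF, 2.75 ± 0.515 in iLuc, 5.59 ± 3.83 in mut9 and 5.66 ± 2.62 CPM in DAF, but at 0.416 ± 0.147 CPM in DAF-mut9 (SD, n = 3). SYNGR1, a relative of SYNPR, rose from 1.45 ± 1.14 to 8.06 ± 2.69 CPM in iLuc. STX1A, a plasma membrane SNARE gene, fell from 44.7 ± 15.1 to 6.64 ± 1.82 CPM, and UNC13A and PCLO, of the active zone, fell by 2.22 and 1.56 on the log2 scale (adjusted p = 2.29e-05 and 0.000232 by edgeR). UNC13A and PCLO did not pass in WT-EF over iEF (adjusted p = 0.0623 and 0.843 by edgeR), whereas STX1A did (1.87e-05). Of 18 other pituitary and neuroendocrine regulators, 10 had enough counts, 3 were higher and 2 lower in iLuc over iEF, with a median of 0.38, and 3 were higher and 1 lower in WT-EF, beside the same shares of all genes. The 2 lower genes in iLuc are near that share. NKX2-2 and ISL1, homeobox regulators, rose by 3.22 and 2.37 (adjusted p = 4.09e-09 and 7.94e-09 by edgeR). REST, the repressor of neuronal genes, fell by 0.55 and TBX19 fell by 0.76 (adjusted p = 0.00285 and 0.0253 by edgeR). Neither REST nor TBX19 passed in WT-EF over iEF (adjusted p = 0.209 and 0.701 by edgeR), whereas NKX2-2 and ISL1 did (1.03e-05 and 5.64e-08).

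**Figure D4:**
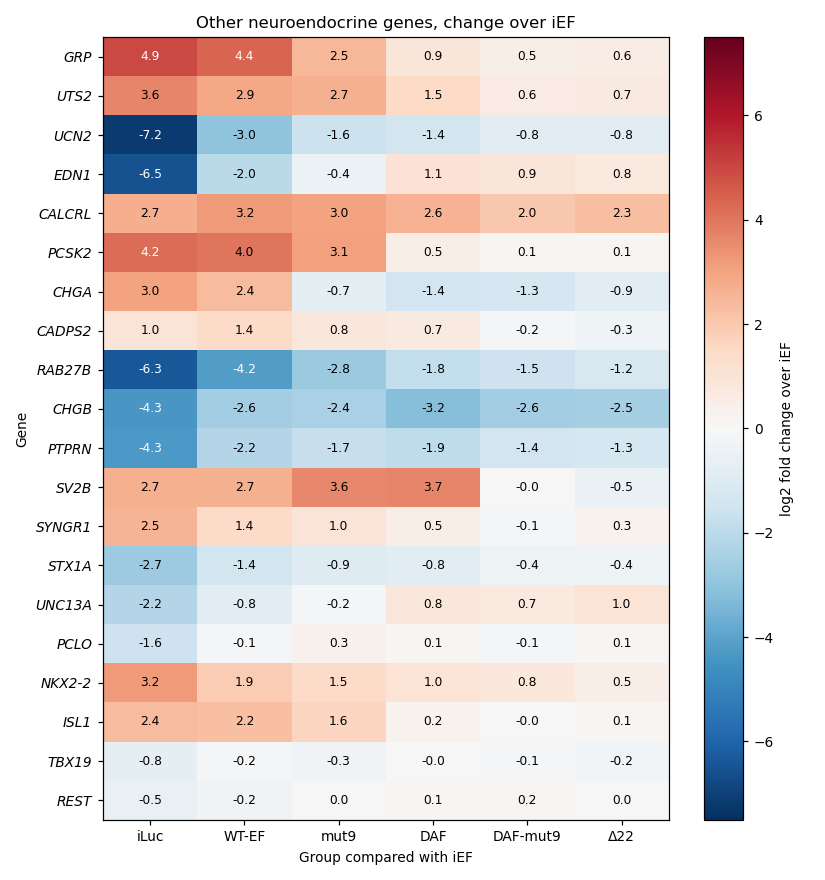
Log2 fold change over iEF, as colour and number, of 20 other peptide, receptor, granule, vesicle and regulator genes in iLuc and each construct. PCSK2, GRP and ISL1 are high in iLuc, WT-EF and mut9 and near 0 in DAF-mut9 and Δ22, whereas CALCRL is higher and CHGB lower than iEF in all 6 groups.

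The members' own patterns over the 21 libraries were compared by Pearson's r of log2 CPM, given as a description because the libraries share groups and the genes share libraries. POU1F1 and SYNPR had r = 0.927, and NPY1R and NPY5R had r = 0.956. CALCB, POU1F1 and SYNPR were selected on their levels in these same libraries, so any r with these genes may partly reflect that choice. NPY1R and NPY5R share exon bases, so part of their counts is uncertain, and so is their r. GAL ran opposite to the other 7 members compared, from r = -0.661 with NPY5R to r = -0.96 with POU1F1. CALCB was closer to NPY (r = 0.853) and POU1F1 (r = 0.848) than to NPY5R (r = 0.6). Of genes at 5 CPM or more, the most alike were EBF3 (r = 0.964), ADGRG2 and FMR1 for CALCB, and MACROH2A2 (r = 0.977), SOX1 and PPP1R1A for POU1F1. SYNPR was most like AK7 (r = 0.972), SOX1 and ARHGAP19, and NPY was most like LRFN2 (r = 0.972), TAFA5 and ZDHHC3. FCGRT headed the lists of both NPY1R (r = 0.957), with PRKCB and SLC24A3, and NPY5R (r = 0.969), with SLC24A3 and NPY1R itself. CCK was most like EWSR1 (r = 0.934), RIOK1 and THOC1, and GAL was most like SLC41A2 (r = 0.986), IL6ST and C6orf62. EWSR1 averaged 329 CPM in iLuc, 255 in iEF and 283 CPM in WT-EF, a narrow range, and its counts include the fusion. CALCA, with a mean below 1 CPM, was left out of these correlations.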

How the data were processed

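RNA-seq was carried out on 21 libraries of A673 cells. The authors sequenced paired-end libraries, aligned reads to hg19 with STAR (2.5.1b in the submitters' processing notes, another release in the study's methods) and deposited raw counts per Ensembl gene, made by htseq-count in intersection-strict mode. Strand setting and annotation release are not given in the sources used here. The authors also deposited a signal made by adjusting these counts for replicate set with ComBat, used here only as an alternative, and a table of their own fold changes, not used here. In the count table, the 5 lines for unassigned reads were empty.

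The raw counts were tested with edgeR 4.0.16 under R 4.3.3. The table lists 57820 genes, of which 48035 had a count in some library, and 30549 averaged 1 or more counts per library and were tested. After TMM normalization, all 21 libraries entered 1 quasi-likelihood fit with terms for group and for replicate set. The second term follows the authors' own batch adjustment. P-values were Benjamini-Hochberg adjusted over all tested genes and called at 0.05. SE is the size of the log2 fold change divided by the square root of the quasi-likelihood F statistic. Library totals of 32.9 to 46.2 M counts limit genes with few counts in iEF.

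The members, gene lists and rules were chosen with earlier results of these data known. All 9 members are named. Likeness used log2 CPM with a prior count of 2, naming 3 genes of at least 5 CPM for each member of at least 1 CPM. From each list, up to 3 genes each way by log2 fold change in iLuc over iEF, with a mean of at least 1 CPM, are named. PRL, GHRHR, RAMP1, RAMP2, CCKAR, GALR2 and PCSK1 were named after their values were seen. Coordinates follow GENCODE release 44 on GRCh37. Scripts were tested on simulated data. Alternatives were DESeq2 1.42.0, RLE normalization, a fit with no replicate block, one with every gene that had a count, fits of the compared groups alone, limma 3.58.1 on the ComBat values and leaving out each library of a comparison. One marker of other cell types is not reported here and was left out of the summed marker level.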

Additional observations from a re-analysis of the deposited data

Results flagged for a closer look

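The effect of tyrosine substitution differed between the short and the full-length form for 3 genes, by the interaction term of the edgeR quasi-likelihood fit. For NPY1R the interaction was -2.26 on the log2 scale, with a fall from 53.1 to 11.3 CPM in the short form and means of 28.5 and 28.3 CPM in the full-length form. For NPY5R it was -2.96, with a fall from 8.44 to 1.38 CPM in the short form and means of 3.58 and 4.74 CPM in the full-length form. For GAL it was -2.54, with a rise from 1.33 to 11.6 CPM in the full-length form and means of 5.18 and 7.74 CPM in the short form. GAL averaged 10.7 CPM in iEF, and mut9, DAF and DAF-mut9 all overlapped iEF. The GAL interaction therefore includes the difference between WT-EF and mut9. The test was chosen after the levels had been seen.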

How the results depend on the processing

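Of 1621 values recomputed under the alternatives, 1474 kept their direction and their side of the threshold or moved by no more than the allowed margin, 36 calls were lost, 13 were gained and 28 values changed sign. For the other 70, counts or levels moved by more than 1.5 times or the replicate spread. The cause was not tested.

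With no replicate block, the Δ22 against iEF call of NPY5R was lost (0 members, 508 genes), DAF-mut9 against iEF gave 684 genes and DAF against Δ22 gave 178 genes, and CCK in mut9 against WT-EF was lost. No other member's call changed. Same-numbered libraries deviated from their group means with r of -0.126 to 0.541 (median 0.158 over 14250 genes), against a median of -0.0906 for other pairs. Taking deviations from group means ties the second median to the first, so it is no separate comparison. The same-numbered range reached below 0, so the numbers did not pair every library.

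With no low-count filter, Δ22 against iEF called 3 members (CALCA, NPY1R and NPY5R) and 2144 genes, DAF-mut9 against iEF 2243 genes, DAF against Δ22 906 genes and the interaction 2007 genes. With only the compared groups fitted, Δ22 and DAF-mut9 against iEF called 0 members, DAF against iEF 1510 genes, mut9 against WT-EF 5116, DAF-mut9 against mut9 4848, DAF against Δ22 682 and the interaction 2408 genes. With DESeq2, DAF against Δ22 called 475 genes and the interaction 1613. On the authors' batch-adjusted values, Δ22 and DAF-mut9 against iEF called 0 members, mut9 against WT-EF 3 (NPY1R was lost, and GAL, like SYNPR, was not analysed on these values) and DAF against Δ22 1, CALCA gained an interaction of 1.34, and the log2 fold change of CALCB was 2.78 in iLuc and 3.95 in WT-EF over iEF, -4.03 in DAF against WT-EF and -1.42 in DAF-mut9 against mut9.

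Leaving out 1 library at a time, members called ran from 0 to 1 in Δ22 and in DAF-mut9 against iEF, from 3 to 5 in mut9 against WT-EF and from 1 to 2 in DAF against Δ22. Genes called ran from 185 to 919 in Δ22, 1312 to 2136 in DAF, 2688 to 4045 in mut9 and 323 to 1131 in DAF-mut9 against iEF, from 696 to 1817 in mut9 against WT-EF, 1754 to 2550 in DAF-mut9 against mut9, 170 to 224 in DAF against Δ22 and 505 to 1157 in the interaction.

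All changes of sign were in values that did not pass. NPY in mut9 against WT-EF was -0.014 with DESeq2, -0.016 with RLE, -0.034 with no low-count filter, -0.16 on the batch-adjusted values, -0.089 with the 2 groups alone and -0.33 to 0.34 with a library left out. NPY1R in DAF against WT-EF was 0.0033 with DESeq2, 0.0031 with RLE, 0.0014 with the 2 groups alone and -0.15 to 0.039 with a library left out. With a library left out, Δ22 against iEF ran from -0.095 to 0.64 for NPY, -0.95 to 0.39 for CCK and -0.63 to 0.14 for GAL. GAL ran from -0.27 to 0.57 in DAF against iEF and from -0.012 to 0.67 in DAF against Δ22. In DAF-mut9 against iEF, CALCA ran from -0.24 to 1.42 and CCK from -1.23 to 0.025, and the CCK interaction from -0.29 to 0.31. CALCA in iEF, DAF and DAF-mut9 rested on 12 counts or fewer per library.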
